A study of Drosophila melanogaster with 6 samples.

Results

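The cytochrome P450 genes of Drosophila melanogaster were examined in larval salivary glands (SG) and in brains with imaginal discs (B-D). Members were all genes of the count table whose symbol is Cyp followed by a family number, a subfamily letter and a gene number, which gave 85 of 17493 genes. By their annotation 83 are protein coding and 2 are pseudogenes, and their symbols fall into 20 families, 13 of them with a single member. The rule used symbols and no measured value. Of the 85, 75 had enough counts to be tested, against 65% of all genes.

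Cytochrome P450 enzymes use a haem group and electrons from a partner reductase to insert an oxygen atom into fatty acids, steroids, hydrocarbons and foreign compounds. Most insect P450s sit in the endoplasmic reticulum and draw on cytochrome P450 reductase, whereas a smaller mitochondrial group draws on adrenodoxin reductase and ferredoxin. In larvae, enzymes that break down plant toxins and insecticides are best known from the midgut, Malpighian tubules and fat body, the enzymes of ecdysone synthesis from the ring gland attached to the brain, and enzymes of cuticular hydrocarbon synthesis from oenocytes.

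Libraries were made from polyadenylated RNA of y1 w67c23 larvae, 3 replicates per tissue. Eggs were laid over 6 h at 25 °C, and feeding larvae of the last instar were dissected 4 days later. SG is labelled as endoreplicating, meaning that its cells copy DNA without dividing, and B-D as mitotic, and the study compared them to learn how the transcriptome differs between these cycles. No group was treated and none carries a transgene. B-D is a mixture of organs, and in bulk tissue fewer cells of a type and less RNA per cell cannot be told apart.

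Total counts ranged from 45023997 to 56583711 per library, of which P450 genes took 0.150% to 0.168%, and the floor of 3 counts lay between 0.0530 and 0.0666 CPM before scaling, CPM being counts relative to the size of the library. Levels below are CPM after TMM scaling, edgeR's trimmed mean method, in the order of replicates 1, 2 and 3. TMM raised SG levels relative to B-D, so that on library size alone the median log2 fold change of all genes moved from -0.03 to -1.13. In SG the salivary gland markers fkh, sens, CrebA and Sgs3 were called higher, while Sgs7 and Sgs8 were not called. A list of 6 fat body genes, none at 0 in any library, took 16.9%, 14.0% and 11.5% of all counts in the SG replicates and 0.547%, 0.0573% and 0.176% in the B-D replicates, and all 6 genes were called higher in SG. Conversely, the summed level of 8 ring gland genes was 403, 412 and 400 CPM in B-D but 46.7, 14.4 and 47.2 CPM in SG. Of these, 7 were called lower in SG. The exception, sro, was called higher, at 10.9, 8.28 and 8.19 CPM in B-D and 16.9, 12.4 and 18.7 CPM in SG. SG replicates also differed in glue and steroid-responsive genes: Sgs3 stood at 11.4, 2284 and 9449 CPM.

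P450 genes were more often higher than lower in SG. Of 75 members that passed the filter on low counts, 39 (52.0%) were called higher, against a background of 34.5% of the 11369 genes tested. Another 15 (20%) were called lower, against 35.3% of all genes, and 21 were not called, so that 54 were called in all against 69.8% of all genes. With the replicate number as a block 39 were called higher and 10 lower, and Cyp4g1, Cyp303a1, Cyp309a2, Cyp312a1 and Cyp318a1 lost their calls. A gene was called where edgeR's quasi-likelihood test gave a Benjamini-Hochberg adjusted p of at most 0.05 and the log2 fold change was 0.5 or more in size, with positive values for higher levels in SG. Large changes were mostly in 1 direction: 23 members (30.7%) were at least 8-fold higher, against 6.48% of all genes, and 2 members, Cyp4g1 and Cyp4g15, were at least 8-fold lower, against 13.1%. The median log2 fold change was 0.89 over the tested members. In 57 of the 75 (76.0%, against 81.2% of all genes) no library of SG lay within the range of B-D or the reverse, and SG was above B-D in 40 of these.

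Of the tested members 63 passed the filter in both tissues, 3 passed through SG alone, 7 through B-D alone and 2 through libraries of both. A member that passed through 1 tissue alone tends to differ for that reason, although Cyp6t1 and Cyp6t2Psi, which passed through B-D alone, were not called. The counts above therefore describe the members and are no test of them. With library size as the only scale 29 members were called higher and 29 lower, against 14% and 62.5% of all genes, and the P450 median became -0.20. All 23 members with a rise of at least 8-fold stayed called higher on that scale, and the 15 called lower stayed lower.

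**Figure D1:**
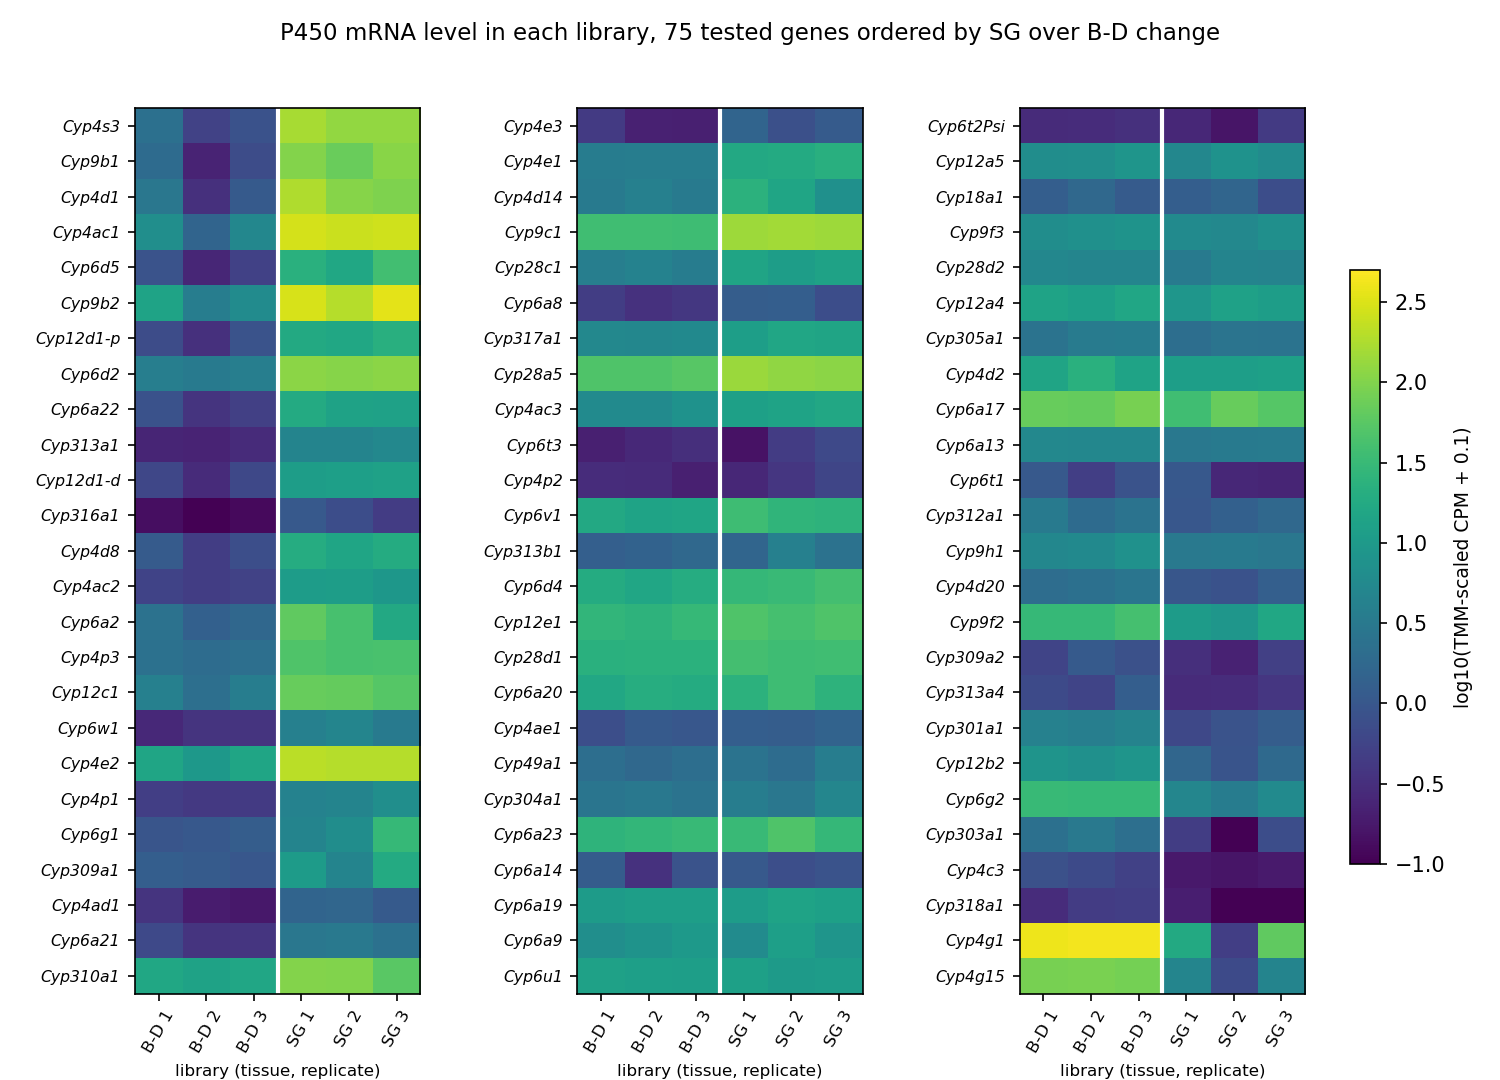
Level of the 75 tested P450 genes in each library, as log10 of TMM-scaled CPM plus 0.1, with genes in order of their SG over B-D change from Cyp4s3 down to Cyp4g15. The left block holds genes that are bright in SG and dark in B-D, and within B-D many of them are darkest in replicate 2.

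The summed level of all 85 members was 1054, 1049 and 1112 CPM in B-D and 2506, 2176 and 2395 CPM in SG. Every SG library was thus above every B-D library, with means of 1072 ± 35.1 and 2359 ± 168 CPM (SD, n = 3 each) and a ratio of 2.20. The two-sided exact permutation p was 0.1, which is as small as 3 libraries against 3 can give. On library size alone the ratio was 1.03 (two-sided exact permutation p = 0.6), so the higher summed level in SG rests on the TMM scale.

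The tissues drew on different P450 genes. In B-D, Cyp4g1 alone took 39.0% ± 1.44 of the summed level (SD, n = 3), and Cyp4g1, Cyp4g15 and Cyp6a17 together took 54.1% ± 1.45. In SG the level was spread over more genes, with Cyp9b2 at 11.9% ± 2.90 and the leading 8 genes together at 59.4% ± 1.73. Without Cyp4g1 the summed level of the other members averaged 654 ± 31.6 CPM in B-D, below 2332 ± 156 CPM in SG.

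Levels of different genes were compared per kilobase of exon. In B-D the order was led by Cyp4g1 at 183 ± 6.53 CPM per kb, followed by Cyp6a17 at 43.1 ± 6.74, Cyp4g15 at 33.3 ± 1.415, Cyp28a5 at 28.5 ± 1.99, Cyp9c1 at 21.0 ± 0.38 and Cyp9f2 at 18.9 ± 3.27 (SD, n = 3). Neighbours in this order after Cyp4g1 lay close, and the SDs of Cyp9c1 and Cyp9f2 overlap. In SG the order was Cyp9b2 at 170 ± 48.2 CPM per kb, Cyp4ac1 at 162 ± 9.35, Cyp4e2 at 105 ± 3.94, Cyp9c1 at 84.7 ± 2.74, Cyp28a5 at 70.6 ± 7.13 and Cyp6d2 at 63.4 ± 2.595. Cyp9b2 and Cyp4ac1 did not differ beyond their spread. Only Cyp9c1 and Cyp28a5 were among the leading 8 of both tissues by this measure.

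**Figure D2:**
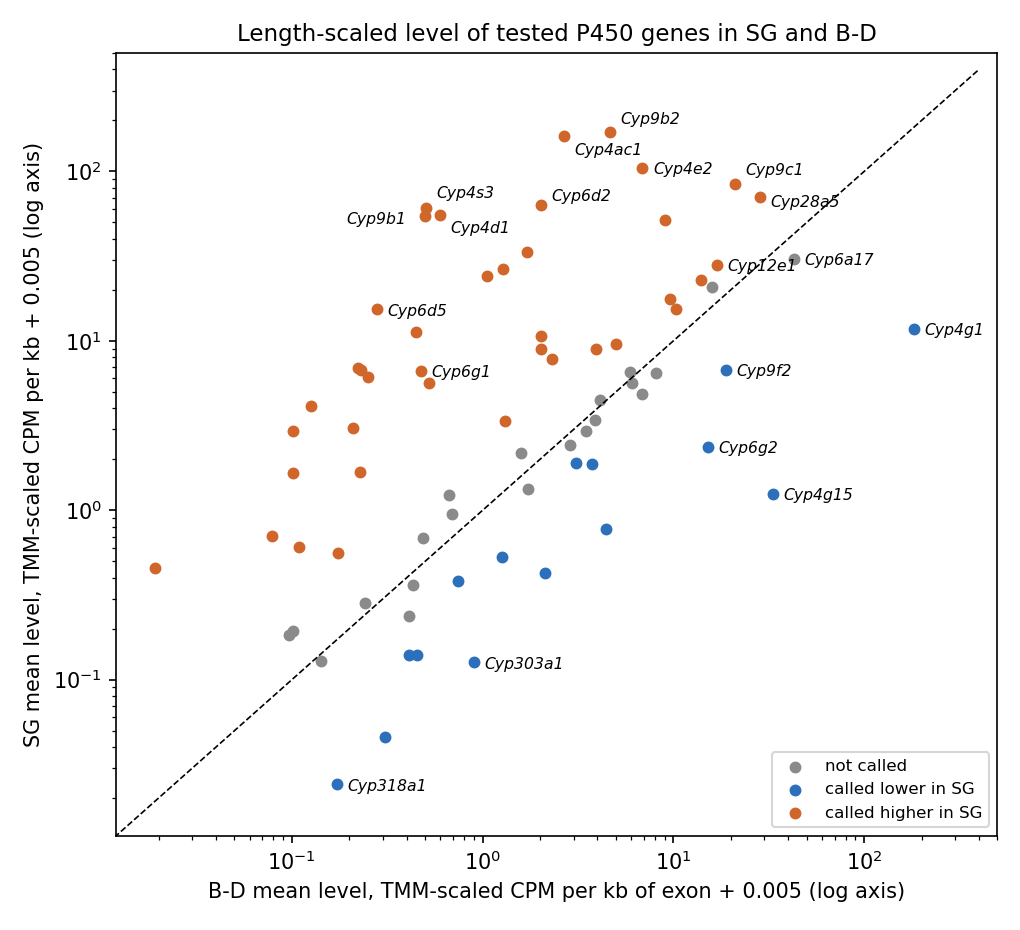
Mean length-scaled level of the 75 tested P450 genes in B-D (horizontal) and SG (vertical), in TMM-scaled CPM per kb of exon plus 0.005 on log axes, with the dashed line at equal levels and colours for the call. Cyp4g1 at 183 CPM per kb in B-D stands alone on the right, and Cyp9b2 and Cyp4ac1 lie at the top.

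Cyp4 is 1 of the 2 large families, with 22 members of which 20 were tested. Of these 13 (65%) were called higher and 4 (20%) lower, against 34.5% and 35.3% of all genes, and the median log2 fold change of 2.46 was the highest among families with at least 4 tested members. It held both the largest rise and the deepest falls of all P450 genes. Enzymes of this family are known for oxidising fatty acids and related lipids at their chain ends. On library size alone 11 of its members were called higher and 5 lower, where 14% and 62.5% of all genes were called.

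Cyp4s3 showed the largest increase. Its level was 2.26, 0.437 and 0.752 CPM in B-D and 164, 128 and 124 CPM in SG. The log2 fold change was 6.91 ± 0.70 (SE), with an adjusted p of 0.000284 in edgeR's quasi-likelihood test. All SG libraries were far above all B-D libraries. B-D replicate 1 was the highest of its group, and without it the change was 7.89. Of its exon length, 20.2% overlaps the neuronal gene Rab3-GEF on the opposite strand, which fell from 5035 to 5376 counts in B-D to 20 to 165 counts in SG and thus moved the other way.

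Cyp4d1 stood at 2.85, 0.226 and 1.00 CPM in B-D and at 179, 105 and 97.4 CPM in SG, a log2 fold change of 6.53 ± 0.96 (adjusted p = 0.00116). Cyp4ac1 had 6.73, 1.48 and 5.07 CPM in B-D and 288, 257 and 266 CPM in SG, a change of 5.93 ± 0.61 (adjusted p = 0.000298). Both were uniform within SG to less than a 2-fold range and varied several-fold within B-D, where replicate 2 was lowest. Without B-D replicate 1 the change of Cyp4d1 was 7.70. Cyp4e2 was measured at 14.9, 9.37 and 14.9 CPM in B-D and at 208, 195 and 195 CPM in SG, with a change of 3.93 ± 0.21 (adjusted p = 4.49e-05).

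The other 9 Cyp4 genes called higher had log2 fold changes from 1.19 (Cyp4ac3) to 4.65 (Cyp4d8), and they were Cyp4ac2, Cyp4ac3, Cyp4ad1, Cyp4d14, Cyp4d8, Cyp4e1, Cyp4e3, Cyp4p1 and Cyp4p3. Without B-D replicate 1 Cyp4ad1 moved from 3.22 to 4.02 and Cyp4e3 from 2.52 to 3.23. Cyp4p3 was the most even of them between replicates, at 2.32, 1.94 and 2.12 CPM in B-D and 47.4, 42.2 and 43.7 CPM in SG. Cyp4d14 and Cyp4ac3 lost their calls on library size alone. Genes of the other strand overlap 97.2% of the exon length of Cyp4d14. Among them ND-B14.5A had 755, 605 and 599 counts in B-D and 1294, 982 and 863 in SG. An antisense RNA gene had 837, 1117 and 860 counts in B-D and 215, 205 and 196 in SG. The part of their reads in the counts of Cyp4d14 was not tested. Cyp4ae1, Cyp4d2 and Cyp4p2 were not called, although Cyp4p2 was called higher without SG replicate 1 (1.28), and Cyp4d2 and Cyp4ae1 overlap an antisense RNA gene over 98.7% and 88.3% of their exon length.

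The deepest falls were in the subfamily Cyp4g. Cyp4g1, which in oenocytes makes cuticular hydrocarbons from fatty aldehydes, stood at 400, 426 and 426 CPM in B-D and at 17.3, 0.387 and 62.8 CPM in SG. B-D libraries were nearly equal, whereas the SG libraries differed from each other by more than 100-fold and all lay below B-D. The log2 fold change was -3.96 ± 1.44 (adjusted p = 0.0442), the closest of all called members to the p threshold, and with the replicate block it was -5.15 and not called (adjusted p = 0.0588). The call was lost without any single B-D replicate (adjusted p = 0.0749, 0.0824 and 0.0822 without replicates 1, 2 and 3) or without SG replicate 1 (adjusted p = 0.120). It held without SG replicate 2, with a change of -3.36 (adjusted p = 0.00447), and without SG replicate 3, with a change of -5.54 (adjusted p = 0.0257).

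Cyp4g15, described from the larval brain, was at 87.1, 91.6 and 84.2 CPM in B-D and at 4.72, 0.581 and 4.53 CPM in SG. Every SG library was below every B-D library, and SG replicate 2 was again the lowest. Its log2 fold change was -4.73 ± 0.74 (adjusted p = 0.00148).

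Cyp4c3 reached only 0.727, 0.587 and 0.414 CPM in B-D and 0.0809, 0.0645 and 0.0870 CPM in SG, a log2 fold change of -2.85 ± 0.36 (adjusted p = 0.000650). The groups did not overlap, but SG lay near the floor. Cyp4d20 was called lower as well (-1.26). Too few counts were found to test Cyp4aa1, with 2 to 7 counts per library, and Cyp4d21, a male-biased gene linked to courtship, which had 2, 1 and 4 counts in B-D and 0 in each SG library. A count of 0 allows up to 3 counts per library, so Cyp4d21 was not separable between tissues at this depth.

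Some markers of other tissues were, like the Cyp4g genes, lower in SG and lowest in SG replicate 2. The oenocyte gene FASN3 stood at 123, 107 and 167 CPM in B-D and at 7.09, 1.32 and 31.2 CPM in SG, so that SG replicate 2 was lowest and SG replicate 3 highest, as for Cyp4g1. The other 2 oenocyte genes examined went different ways, with FarO lower in SG (-1.32) and KFase higher (5.65). Neither had this order, with FarO at 1.46, 1.84 and 2.18 CPM and KFase at 89.3, 70.5 and 57.5 CPM in SG. Neuronal marker genes in SG were at a median of 4.99%, 1.44% and 7.63% of their B-D mean. The highest of them, Syt1, was at 31.5%, 24.9% and 31.8%. SG replicate 2 was the lowest SG library for 9 of the 15 P450 genes called lower and for 66.8% of all 4010 genes called lower. The part of these tissues in the Cyp4g levels was not tested.

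**Figure D3:**
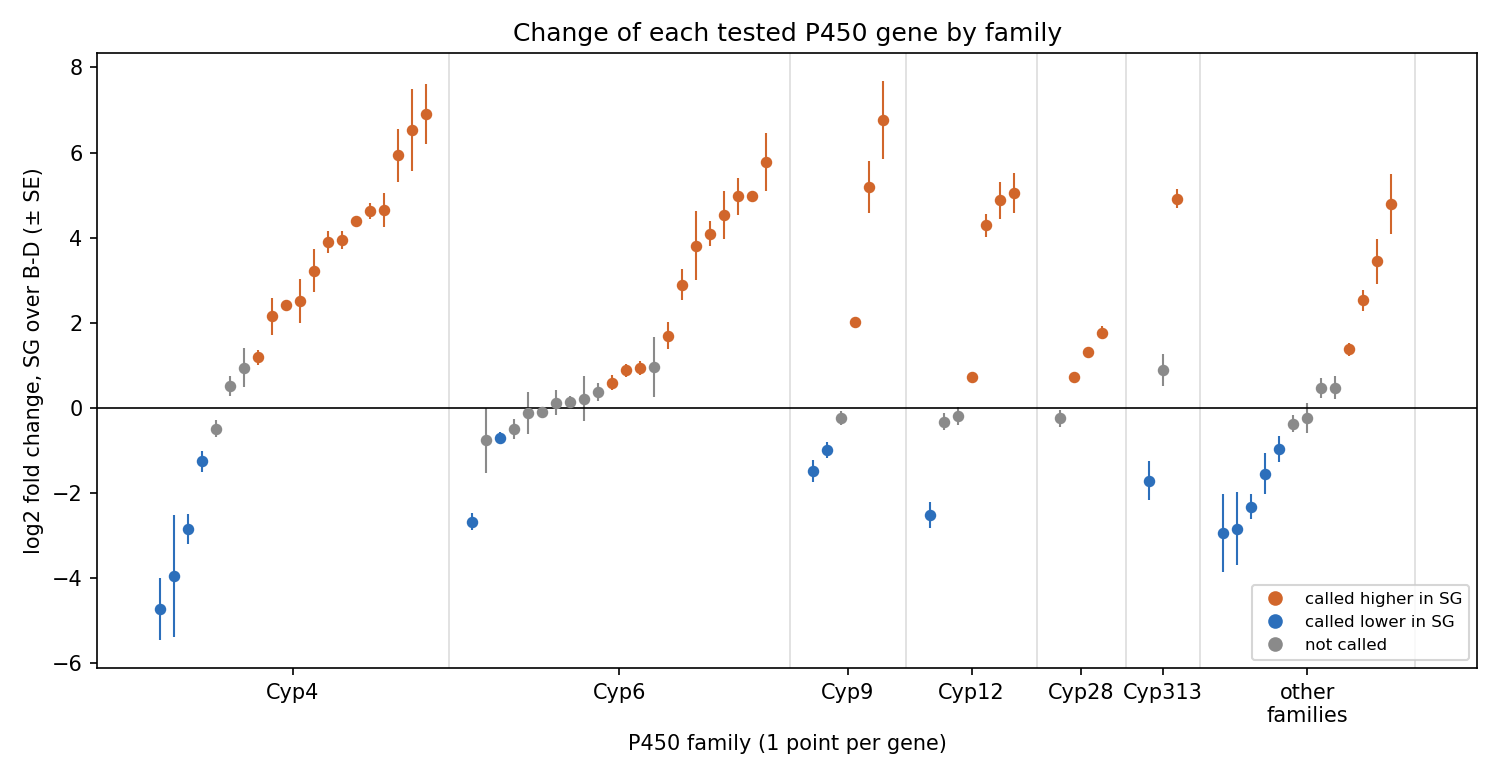
Log2 fold change (SG over B-D, points, with bars for the SE of the edgeR fit) of each tested P450 gene, grouped by family and coloured by call. Cyp4 spans from -4.73 to 6.91, and several Cyp6 genes lie near 0.

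Cyp6, the other large family, contains the genes best known from insecticide resistance. Of its 25 members 22 were tested, 11 (50%) were called higher and 2 (9.09%) lower, against 34.5% and 35.3% of all genes. The median of their log2 fold changes was 0.73. By library size the balance moved to 7 higher and 8 lower, where 14% and 62.5% of all genes were called.

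Among the 6 Cyp6 genes that were higher by at least 8-fold, Cyp6d5 had the largest change. It was measured at 0.788, 0.151 and 0.414 CPM in B-D and at 22.3, 15.8 and 37.4 CPM in SG, a log2 fold change of 5.78 ± 0.68 (adjusted p = 0.000472), and of 6.47 without B-D replicate 1. Cyp6d2, implicated in resistance to camptothecin, was the most even, at 3.77, 3.15 and 3.74 CPM in B-D and 116, 107 and 112 CPM in SG. Its log2 fold change was 4.97 ± 0.12 (adjusted p = 2.76e-05), and although 51.0% of its exon length overlaps nsr on the opposite strand, nsr had only 7 to 22 counts per library.

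Cyp6a2, an insecticide-metabolising enzyme induced by phenobarbital, stood at 2.38, 1.27 and 1.60 CPM in B-D and at 62.6, 42.2 and 17.0 CPM in SG (log2 fold change 4.53 ± 0.56, adjusted p = 0.000600). Cyp6g1, whose overexpression gives resistance to DDT, was at 0.849, 0.934 and 1.15 CPM in B-D and at 4.503, 6.52 and 30.2 CPM in SG (3.81 ± 0.81, adjusted p = 0.00570). Both were above B-D in every SG library, but Cyp6a2 was lowest in SG replicate 3, where Cyp6g1 was highest. The steroid-responsive fat body gene Fbp1 stood at 23.6, 135 and 642 CPM in the same SG libraries, in the order of Cyp6g1. The Lsp genes of the fat body list fell over these libraries, as Cyp6a2 did, with Lsp1alpha at 45197, 38337 and 26248 CPM. Fbp2, at 1087, 900 and 1579 CPM, had neither order. The order of Cyp4d14, at 23.4, 15.0 and 7.17 CPM, was also that of Cyp6a2. Without SG replicate 3 the change of Cyp6g1 was 2.51 and it was still called. Whether the differences in Fbp1, the Lsp genes and Sgs3 between SG libraries bear on these P450 levels was not tested.

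Cyp6a22 (4.97) and Cyp6w1 (4.09) were the remaining genes with a rise of at least 8-fold. Smaller rises were called for Cyp6a21 (2.89), the phenobarbital-inducible gene Cyp6a8 (1.70), Cyp6v1 (0.93), Cyp6d4 (0.88) and Cyp6a20 (0.59), a gene linked to aggression. The call of Cyp6a20 was lost without any 1 of the B-D replicates (adjusted p = 0.0966, 0.0570 and 0.0761 without replicates 1, 2 and 3), and without SG replicate 2 its change was under the threshold. By library size Cyp6v1, Cyp6d4 and Cyp6a20 turned negative, the last with a call as lower (-0.51), and Cyp6a8 lost its call.

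Cyp6g2, known from the corpus allatum of the ring gland, had the largest fall in this family. It was at 31.0, 29.8 and 29.9 CPM in B-D and at 4.85, 3.49 and 5.80 CPM in SG, a log2 fold change of -2.68 ± 0.20 (adjusted p = 9.69e-05). The groups lay far apart and both were even. Cyp6a13 was called lower by a smaller amount (-0.70).

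Several Cyp6 genes were not called. Cyp6a17, which influences temperature preference, stood at 69.2, 66.2 and 87.7 CPM in B-D and at 36.7, 68.1 and 53.1 CPM in SG, a change of -0.50 ± 0.24 (adjusted p = 0.104). Cyp6a23 was at 25.4, 28.5 and 30.6 CPM in B-D and at 31.7, 48.3 and 29.2 CPM in SG (0.37 ± 0.21, adjusted p = 0.154). For both genes the tissues overlapped in at least 1 library. Cyp6u1 was the steadiest, at 13.0, 12.2 and 11.8 CPM in B-D and 12.7, 10.4 and 11.1 CPM in SG (-0.11 ± 0.12, adjusted p = 0.417). On library size alone Cyp6a17 and Cyp6u1 were called lower (-1.59 and -1.21), and Cyp6a17 was also called lower without SG replicate 2 (-0.70).

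Cyp6t3, a gene of ecdysone synthesis in the prothoracic gland, was near the floor, at 0.109, 0.166 and 0.213 CPM in B-D and at 0.0539, 0.355 and 0.551 CPM in SG (0.95 ± 0.71, adjusted p = 0.262). The groups overlapped, and without SG replicate 1 it was called higher (1.48). Cyp6a9, Cyp6a14, Cyp6a19, Cyp6t1 and the pseudogene Cyp6t2Psi were not called either. Of these, Cyp6t1 stood at 0.994, 0.392 and 0.777 CPM in B-D and 0.944, 0.161 and 0.145 CPM in SG, beside gut marker genes that summed to 266, 4.38 and 33.4 CPM in B-D and 31.4, 0.161 and 0.145 CPM in SG. Both were highest in replicate 1 of each tissue, and without SG replicate 1 Cyp6t1 was called lower (-2.22), and a part of gut tissue in this was not tested. Cyp6a15Psi, Cyp6a16 and Cyp6a18 had at most 6 counts in any library and were not tested.

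The family Cyp9 contributed more to SG than to B-D, with 23.1% of the summed P450 level in SG and 8.54% in B-D. Of its 6 members 3 (50%) were called higher and 2 (33.3%) lower on the TMM scale, against 34.5% and 35.3% of all genes. On library size alone 3 were higher and 3 lower, against 14% and 62.5% of all genes. Cyp9b2 stood at 13.8, 3.64 and 5.91 CPM in B-D and at 298, 196 and 355 CPM in SG, a log2 fold change of 5.19 ± 0.60 (adjusted p = 0.000461). Its neighbour Cyp9b1 was at 1.84, 0.136 and 0.627 CPM in B-D and at 104, 72.0 and 111 CPM in SG (6.76 ± 0.92, adjusted p = 0.000862). In both genes every SG library was above every B-D library, B-D replicate 2 was lowest and SG replicate 2 was the lowest of SG. Without B-D replicate 1 their changes were 5.91 and 7.96.

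Cyp9c1 was expressed in both tissues, at 37.1, 36.7 and 35.8 CPM in B-D and at 145, 153 and 145 CPM in SG, with little spread in either. The antisense RNA that overlaps 98.2% of its exon length had 1 to 7 counts per library. Cyp9f2 went the other way, at 29.7, 30.1 and 39.9 CPM in B-D and 10.8, 8.68 and 16.1 CPM in SG (-1.48 ± 0.26, adjusted p = 0.00240), and the groups did not overlap. Cyp9h1 was called lower too (-0.99), and Cyp9f3 was not called.

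The 4 genes of Cyp28 were all tested, and 3 (75%) of them were called higher by small amounts, against 34.5% of all genes. Cyp28a5 was at 48.2, 48.4 and 54.4 CPM in B-D and at 139, 120 and 115.1 CPM in SG (1.31 ± 0.11, adjusted p = 0.000131). SG was above B-D in every library, but on library size alone its change was 0.21 and not called. Cyp28c1 (1.77) and Cyp28d1 (0.72), which is linked to nicotine tolerance, were called higher, Cyp28d1 turned negative on library size alone, and Cyp28d2 was not called.

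Of the 7 genes of the mitochondrial family Cyp12, 4 (57.1%) were called higher and 1 (14.3%) lower, against 34.5% and 35.3% of all genes. Cyp12d1-p (5.06), Cyp12d1-d (4.87) and Cyp12c1 (4.29) had large rises. Cyp12d1-p and Cyp12d1-d, known to be induced by foreign compounds, are near-identical neighbours, and the division of reads between them is uncertain. Cyp12e1 stood at 27.2, 24.9 and 29.9 CPM in B-D and at 47.1, 41.0 and 48.2 CPM in SG (0.73 ± 0.11, adjusted p = 0.00129). It was above B-D in every SG library by TMM, and on library size alone its change was -0.36 and not called. Cyp12b2 was called lower (-2.52). Cyp12a4, whose overexpression gives resistance to lufenuron, was at 13.9, 12.1 and 15.4 CPM in B-D and 8.55, 13.1 and 11.4 CPM in SG and was not called (-0.33 ± 0.19, adjusted p = 0.161). Cyp12a5 was not called either. On library size alone Cyp12 had 3 genes higher and 3 lower, where 14% and 62.5% of all genes were called.

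The small families include genes with roles in hormones, cuticle and sense organs. Cyp18a1, which inactivates ecdysteroids, stood at 1.19, 1.66 and 1.04 CPM in B-D and at 1.16, 1.48 and 0.638 CPM in SG, overlapping groups with a change of -0.24 ± 0.36 (adjusted p = 0.560). On library size alone it was called lower (-1.34). Cyp301a1, needed for the adult cuticle, was at 4.12, 3.71 and 4.45 CPM in B-D and at 0.539, 0.775 and 1.13 CPM in SG (-2.33 ± 0.30, adjusted p = 0.000706). Every SG library was below every B-D library.

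Cyp303a1, required for the shape of sensory bristles, had 186, 203 and 172 counts in B-D and 14, 0 and 22 counts in SG (-2.85 ± 0.86, adjusted p = 0.0226). Its call was lost without any 1 of the B-D replicates or without SG replicate 1, with adjusted p-values of 0.0512, 0.0637, 0.0522 and 0.0570, and with the replicate block (0.0578). Cyp318a1 had 16, 24 and 31 counts in B-D and 4, 0 and 0 in SG (-2.95 ± 0.91, adjusted p = 0.0249). The groups did not overlap for either gene, but the second was lost without B-D replicates 2 or 3 or without SG replicates 2 or 3 (adjusted p from 0.0591 to 0.0719) and with the replicate block (adjusted p = 0.0808), and without SG replicate 1, which leaves SG at 0 counts, the fitted change was -7.21 and is no bound. Cyp303a1 changed by -3.61 without SG replicate 3.

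Cyp310a1 was at 16.02, 13.4 and 15.6 CPM in B-D and at 102, 100 and 56.3 CPM in SG (2.52 ± 0.25, adjusted p = 0.000272), with all SG libraries above B-D. Cyp49a1, of the mitochondrial group, was at 2.05, 1.66 and 2.09 CPM in B-D and 2.45, 1.94 and 3.66 CPM in SG and was not called (0.47 ± 0.28, adjusted p = 0.168). Its groups overlapped. Cyp316a1 (4.79), with 0 to 3 counts in B-D and 12 to 36 in SG, Cyp313a1 (4.91), Cyp309a1 (3.44) and Cyp317a1 (1.37) were called higher, the last not on library size alone, and the fitted value for Cyp316a1 depends on the small counts added by the model and was 5.397 without B-D replicate 1.

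Cyp313a4 (-1.72), Cyp309a2 (-1.55) and Cyp312a1 (-0.97) were called lower. Cyp309a2 lost its call without B-D replicates 2 or 3 or SG replicates 1 or 2 (adjusted p from 0.0632 to 0.0835), and Cyp312a1 without B-D replicates 1 or 3 or SG replicates 1 or 2 (adjusted p from 0.0707 to 0.113). Cyp313a4 lost it without SG replicate 1 (adjusted p = 0.0528), and with the replicate block Cyp309a2 (adjusted p = 0.0545) and Cyp312a1 (adjusted p = 0.0657) were not called. Cyp304a1, Cyp305a1 and Cyp313b1 were not called, but Cyp313b1 was higher without SG replicate 1 (1.17) and with DESeq2 (0.88), and Cyp304a1 without SG replicate 2 (0.65). Cyp308a1 had a single count over all 6 libraries, Cyp311a1 at most 11 counts, Cyp313a2 at most 37 and Cyp313a3 at most 30, and none of these was tested. Cyp313a5, also untested, had 124, 12 and 10 counts in B-D and 1, 3 and 3 in SG, and like the gut genes it was highest in B-D replicate 1.

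By clan, the deep branches into which insect P450 families are grouped, clan 4 had 15 members (57.7%) called higher and 7 (26.9%) lower of 26 tested, and clan 3 had 20 (55.6%) higher and 5 (13.9%) lower of 36. The mitochondrial clan had 4 (44.4%) higher and 2 (22.2%) lower of 9, and over all genes the shares were 34.5% and 35.3%. Clan 2 had none higher and 1 lower of 4, the single call being Cyp303a1. Median log2 fold changes were 2.28, 0.91, 0.47 and -0.31 in that order, and members of a clan share ancestry and are not independent of each other.

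P450 genes often lie side by side. With a gap of at most 10 kb between neighbours, 46 members formed 16 clusters, by the Release 6 annotation. In 5 clusters every member was called higher, and in 2 clusters members were called in both directions. Another 4 clusters held genes called higher with others not called, 3 held genes called lower with others not called or not tested, and 2 had no call. Among the called genes of these clusters, Cyp4ad1 and Cyp316a1 passed the low count filter through SG alone. Cyp309a2 and Cyp318a1 passed it through B-D alone. The filter favoured the direction of their calls, so the cluster counts are a description and no test. Genes of a cluster share sequence and chromosomal surroundings, so they are not independent.

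The cluster of Cyp4ac1, Cyp4ac2 and Cyp4ac3 on chromosome arm 2L (5264001 to 5270329) rose as a whole, with log2 fold changes of 5.93, 4.62 and 1.19. Cyp9b1 and Cyp9b2 on 2R (7127838 to 7132139) rose by 6.76 and 5.19, and Cyp4ad1, Cyp4e2 and Cyp4e1 on 2R (8439395 to 8449745) by 3.22, 3.93 and 2.41. Cyp12d1-p with Cyp12d1-d and Cyp316a1 with Cyp4d8 were the other 2 clusters of this kind. Of these 12 genes only Cyp4ac3 lost its call on library size alone.

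Neighbours also went opposite ways. On 2R (12185667 to 12192436) Cyp6g1 was higher in SG by 3.81 and Cyp6g2 lower by 2.68, next to Cyp6t3, which was not called. Cyp6g1 and Cyp6g2 overlap on opposite strands. On 2L (2562483 to 2573037) Cyp309a1 was higher by 3.44 and Cyp309a2 lower by 1.55. Cyp309a2 had only 39, 68 and 59 counts in B-D and 8, 4 and 14 in SG. Its call was lost with the replicate block and without B-D replicates 2 or 3 or SG replicates 1 or 2. The largest cluster, 9 genes on 2R (14871366 to 14903095), contained 5 genes called higher, from Cyp6a20 (0.59) to Cyp6a22 (4.97), and 4 that were not called, among them Cyp6a17 and Cyp6a23.

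**Figure D4:**
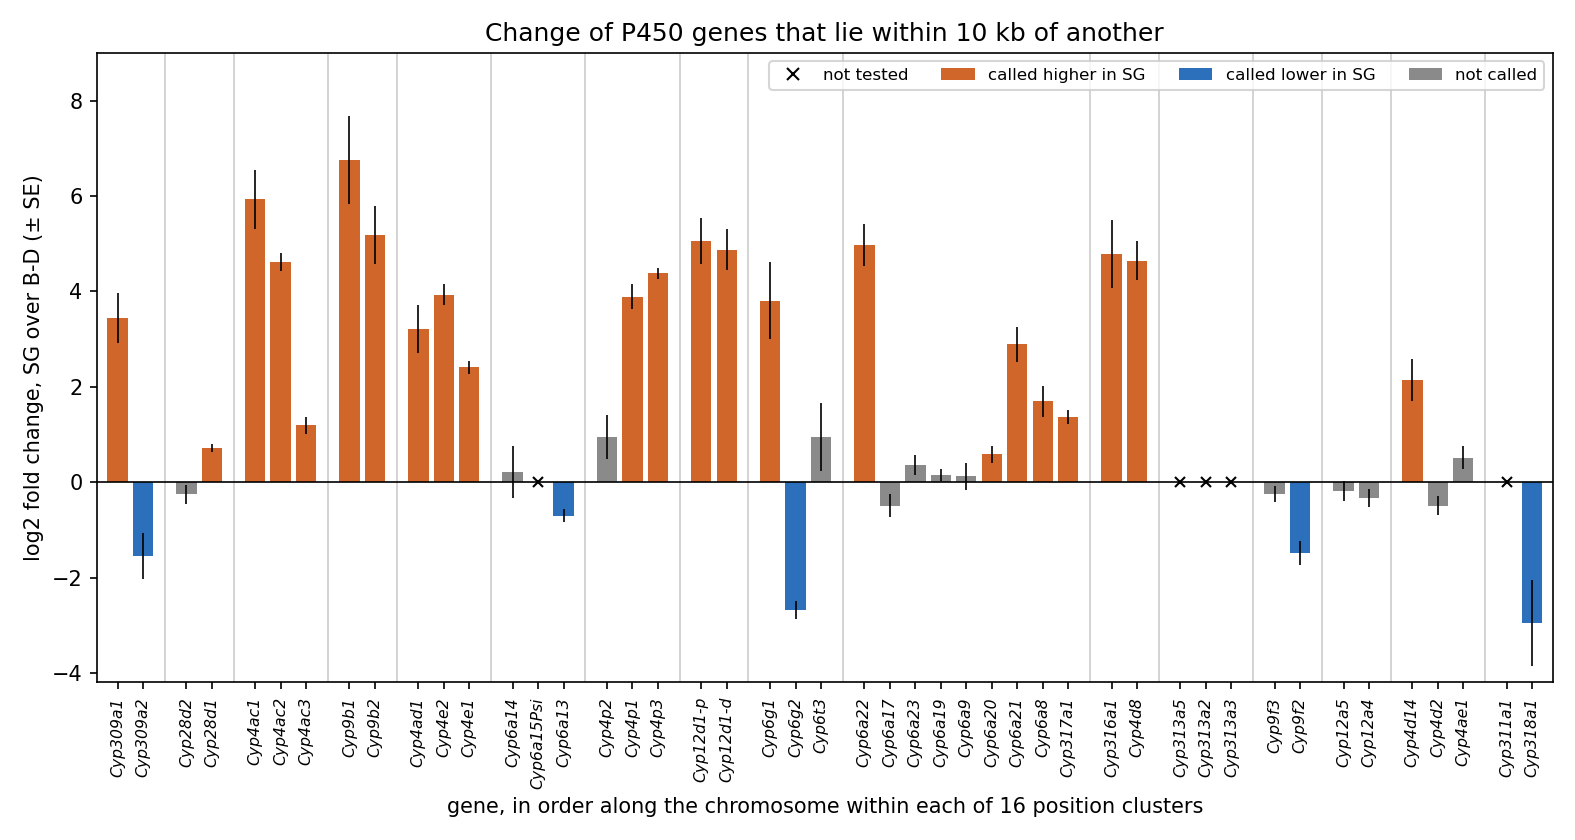
Log2 fold change (SG over B-D, bars, with SE) of the 46 P450 genes that lie within 10 kb of another, in chromosomal order within each of 16 clusters that are parted by grey lines, with crosses for genes not tested. The clusters of Cyp309a1 and of Cyp6g1 hold bars of both directions, and the cluster of 9 genes holds 5 called higher.

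The partners that supply P450 enzymes with electrons were higher in SG by TMM. All 6 genes of this list were called higher, against 34.5% of all genes, and on library size alone 3 of them were, Cyt-b5-r, dare and Cpr, against 14%. Cpr, the cytochrome P450 reductase, stood at 85.9, 78.7 and 75.9 CPM in B-D and at 311.3, 249 and 225 CPM in SG, a log2 fold change of 1.71 ± 0.14 (adjusted p = 0.000149). Cyt-b5-r, a cytochrome b5-related protein that is not an established electron donor of P450s although the list holds it, had the largest change, from 12.6, 2.55 and 3.92 CPM in B-D to 788, 690 and 724 CPM in SG (6.85 ± 0.75, adjusted p = 0.000358). SG was above B-D in every library for both. Cyt-b5 (1.52), the ferredoxins Fdx2 (1.48) and Fdx1 (0.66), and dare (1.95), the adrenodoxin reductase of mitochondrial P450s, were called as well, and Fdx1 lost its call with upper quartile scaling (0.47, adjusted p = 0.0510) and turned negative on library size alone (-0.44, not called).

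The P450 enzymes of ecdysone synthesis, which carry other symbols and are not among the 85, went mostly the other way. Of 6 genes 5 were tested, and phm (-4.46), spok (-4.45), sad (-4.18) and dib (-3.98) were called lower, while spo had too few counts. All 4 belong to the ring gland list as well, and all were lowest in SG replicate 2. The exception was shd, which converts ecdysone to its active form in peripheral tissues and stood at 1.38, 0.813 and 1.58 CPM in B-D and 20.2, 20.04 and 27.2 CPM in SG (4.15 ± 0.30, adjusted p = 9.46e-05).

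A list of 9 genes was taken as regulators of the response to foreign compounds, a role not examined here for Hr38 or any other. Of these 4 were called higher, with cnc the largest (1.41), and 3 lower, with Hr38 the largest (-4.54). These shares, 44.4% and 33.3%, lay near the 34.5% and 35.3% of all genes. By library size none was higher and 5 were lower, against 14% and 62.5% of all genes. Of 17 UDP-glycosyltransferase genes, which conjugate P450 products, 13 were tested. Of these 8 (61.5%) were called higher and 2 (15.4%) lower, from Ugt86Dd (2.39) to Ugt86Di (-3.29), against 34.5% and 35.3% of all genes. On library size alone 3 were higher and 4 lower, against 14% and 62.5% of all genes.

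In B-D, some fat body genes had the library order of many P450 genes that were higher in SG. Lsp1alpha stood at 644, 74.5 and 185 CPM in B-D, so that replicate 1 was highest and replicate 2 lowest. The other Lsp genes of the list shared this order, but Fbp1 stood at 0.752, 0.889 and 8.74 CPM and Fbp2 at 18.1, 0.467 and 21.3 CPM, both highest in replicate 3. Of the 23 P450 genes with a rise of at least 8-fold, 16 had their B-D libraries in the order of Lsp1alpha, as did 40% of the 737 genes called higher by that much. In B-D these 23 genes reached a median of 4.86%, 2.82% and 3.96% of their SG mean, and the fat body genes 1.78%, 0.197% and 0.582%. Within SG the orders were mixed. Lsp1alpha fell over the replicates, at 45197, 38337 and 26248 CPM, as did Cyp4d1 at 179, 105 and 97.4 CPM. Cyp6d5, in contrast, was highest in replicate 3, at 22.3, 15.8 and 37.4 CPM. The part of fat body RNA in the levels of either tissue was not tested.

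**Figure D5:**
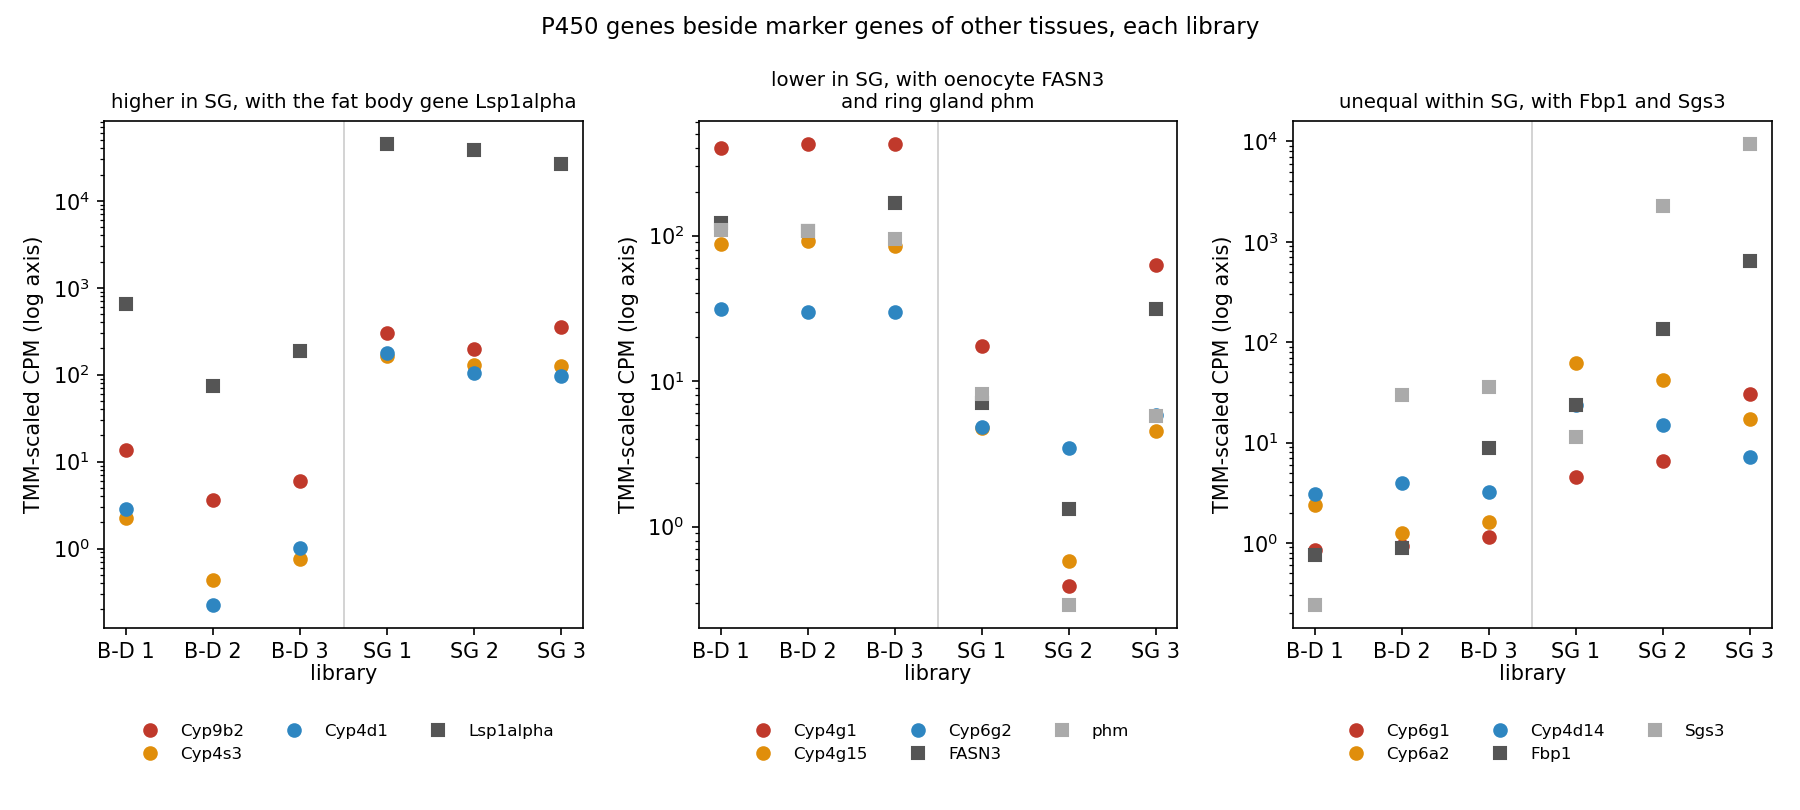
Level of 9 P450 genes (circles) beside marker genes (squares) in each library, in TMM-scaled CPM on log axes. Cyp9b2, Cyp4s3 and Cyp4d1 share the B-D order of the fat body gene Lsp1alpha, Cyp4g1 and Cyp4g15 are lowest in SG replicate 2 like FASN3 and phm, and in SG Cyp6g1 increases where Cyp6a2 and Cyp4d14 decrease.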

How the data were processed

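Both tissues came from the same larvae, per the study, in replicates it describes as biological. Replicate numbers may therefore pair the tissues, although it is nowhere stated that equal numbers mark the same dissection. The main fit did not use this pairing. Deviations from the tissue means correlated at 0.33, 0.0769 and 0.222 for numbers 1, 2 and 3. Unequal numbers ranged from -0.358 (B-D 1 with SG 3) to 0.229 (B-D 2 with SG 3), so these values do not settle the pairing. The fit with a replicate block is given where it changed a call. Reads from a stranded mRNA kit were checked with FastQC 0.11.5, aligned with STAR 2.6.1a and counted per gene with featureCounts, per the submitters' notes and the study's methods. The authors deposited these counts, unnormalized, as the values used. No source used here gives the strand and multi-mapping settings, so counts of overlapping or near-identical genes are uncertain. The authors' own comparison columns (fold changes and p-values from DESeq2 1.14.1) were not used.

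Counts were filtered with filterByExpr (a minimum of 10 counts at the median library size), scaled by TMM and tested by the quasi-likelihood F test of edgeR 4.0.16 in R 4.3.3, with tissue as the only term and Benjamini-Hochberg adjustment over all 11369 genes tested. Simulated data were used to check the fit, with 200 genes changed, equally often up and down. They held no shift in composition between tissues, so that check does not bear on the choice of scale. Standard errors come from that fit, and the floor of 3 counts covers counting error only. No 2 replicates agreed within sampling noise.

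Members, marker lists and companion lists were chosen with earlier results of these data known. Genes named with values were the 8 highest per kilobase in each tissue, the 6 largest called changes in each direction, those nearest the thresholds, and those with a textbook role. Others named were chosen after their values were seen. Positions come from the Release 6 annotation, which held 84 of the 85 members, and from RefSeq of the same release for Cyp6a21. Sequence motifs and protein identity were not analysed here. Alternatives were DESeq2 1.42.0, limma-voom (limma 3.58.1), library size scaling, upper quartile scaling, no filter, a replicate block, leaving out each library and a cluster gap of 20 kb.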

Additional observations from a re-analysis of the deposited data

How the results depend on the processing

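The count called higher was 38 to 40 under every alternative that kept all 6 libraries, with 29 on library size as the exception. The count called lower was 15 to 17 under DESeq2, limma-voom, upper quartile scaling and no filter, and 29 on library size. Leaving out 1 replicate at a time, with the low count filter applied anew to the libraries kept, gave 38 to 42 called higher, 11 to 14 called lower and a median log2 fold change of 0.73 to 0.89. Of the 75 members of the main fit, 6 lost their calls without B-D replicate 3 and 0 gained one. They were Cyp303a1, Cyp309a2, Cyp312a1, Cyp318a1, Cyp4g1 and Cyp6a20. The median was 0.78 with limma-voom, 0.71 with upper quartile scaling, 0.82 without a filter and -0.20 on library size, where the summed ratio was 1.03. With the replicate block 39 members were called higher and 10 lower, with a median of 0.80, and it changed the call of 5 members, Cyp4g1, Cyp303a1, Cyp309a2, Cyp312a1 and Cyp318a1, and of no other member. On library size the changes of Cyp12e1 (-0.36), Cyp49a1 (-0.62), Cyp6a23 (-0.73) and Cyp6t3 (-0.12) turned negative, by construction of that scale. Cyp18a1 was not called in the main fit. With 1 library left out it ranged from -0.50 without SG replicate 2 to 0.049 without SG replicate 3, with 0.02 without B-D replicate 2. On library size it was called lower (-1.34). A gap of 20 kb put 49 members in clusters. Depth limits the 10 untested members and those near the floor.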
